A study of Mus musculus with 12 samples.

Results

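The untreated baseline of mouse epidermal scrapings is described here from the 6 libraries whose titles mark them as Wildtype, out of 12 RNA sequencing libraries in the series. They were chosen by title alone and no measured value entered the choice. The study asked how loss of Pparg, the gene of the lipid-activated nuclear receptor PPARγ, in the epidermis alters skin, and the other 6 libraries come from its Pparg-/-epi mice, which are not compared here. Dorsal skin free of lesions was snap frozen and scraped with a curette until the pink bed under the epidermis was reached, and mRNA libraries made from the total RNA of the scrapings were sequenced.

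All 6 mice were of C57BL/6 background, homozygous for a Pparg allele with loxP sites around exons 1 and 2, and lacked the keratin 14 promoter-driven Cre. They are littermate controls of the Cre cross, so wild-type here means floxed and without Cre, and no mouse without the floxed allele was sequenced. By the labels WT 1, WT 3 and WT 5 were male and WT 2, WT 4 and WT 6 female, and the ages from WT 1 to WT 6 were 8, 9, 13, 13, 12 and 12 weeks. A supplementary table of the study lists an older age for WT 2 than its label does, by which WT 2 would not be younger than the 12-week mice, and the label is used here. The methods of the paper give a younger age range for experimental mice than the labels of WT 3 to WT 6. The RNA integrity number (RIN, a measure of how little the RNA has degraded) was 7.4, 8.6, 6.1, 7.1, 5.9 and 6.2 in WT 1 to WT 6.

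Interfollicular epidermis renews itself from a basal layer that makes keratins 5 and 14. Cells that leave it enter the spinous layer, where they switch to keratins 1 and 10, and then the granular layer, where they make loricrin, filaggrins and late envelope proteins before they die and form the cornified barrier. Hair follicles with their sebaceous glands, Langerhans cells, T cells and melanocytes sit within or hang below this sheet, and a scrape can carry dermis, vessels, fat and the thin muscle under mouse skin along with it.

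The deposited table held counts for 14533 genes. Assigned counts from WT 1 to WT 6 were 15471774, 16947632, 10120840, 15091701, 13233938 and 15766063. A single count was worth 0.0590 to 0.0988 counts per 1000000 (CPM), and the limit that a count of 0 allows, 3 counts, was 0.177 to 0.296 CPM depending on the library. Intervals and limits of this kind cover counting error only. Since the table keeps a gene only when it passes 0.5 CPM in at least 6 of the 12 libraries, a gene that is missing from it may still have been expressed at a low level, and 13 of the genes it holds passed 0.5 CPM in no wild-type library.

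WT 2 stood apart from the other libraries, WT 5 did so to a smaller degree, and WT 1 did so in its collagens. Over the 500 genes that differed most in each pair, the root mean square log2 difference to the other 5 libraries averaged 2.87, 3.66, 2.82, 2.56, 3.19 and 2.85 from WT 1 to WT 6, so WT 1 was hardly farther from the rest than WT 3 or WT 6 on this measure. Between WT 3, WT 4 and WT 6 the pairs lay at 1.90, 1.88 and 2.00. WT 2 carried more follicle, gland, vessel and macrophage transcripts and less spinous keratin, WT 5 carried skeletal muscle, and WT 1 carried matrix collagens. By the labels WT 1 and WT 2 were also the youngest mice, with the highest RIN. Past an opening number common to all mouse names, WT 3 to WT 6 share a further number. WT 1 and WT 2 each have another, and a Pparg-/-epi mouse also bears that of WT 2. The labels do not give the meaning of the further number. Age, RIN, that number and depth of the scrape therefore cannot be told apart in these 2 libraries. Mean class shares of counts and the number of variable genes are also given without WT 1, WT 2 and WT 5, a choice made after seeing the data. Most other means are over all 6 libraries and may rest on a single library.

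Counts were spread over many genes with a peak in keratinocyte transcripts. The 10 most abundant genes held 7.33% ± 1.43 (SD, n = 6) of the counts and the 100 most abundant 22.0% ± 2.66. WT 2 was the most even library, with 4.55% of its counts in those 10 genes, against 7.16% to 8.32% in the other 5. On average 82 genes at 1000 CPM or more held 20.4% of the counts, 2185 genes between 100 and 1000 CPM held 48.3%, and 7539 genes between 10 and 100 CPM held 29.6%. A further 3890 genes averaged 1 to 10 CPM and 837 genes less than 1 CPM.

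Krt10, the type I keratin of the suprabasal layers, took the most counts of any gene. Its level was 20084, 7891, 20315, 18162, 21529 and 20889 CPM in WT 1 to WT 6, so that WT 2 lay far under the other 5 libraries. Dmkn, which encodes the secreted keratinocyte protein dermokine, followed at 7933 ± 2136 CPM (mean ± SD, n = 6). The nuclear noncoding RNA Malat1 (7559 ± 3243 CPM) and Eef1a1, the elongation factor that brings aminoacyl-tRNA to the ribosome (6948 ± 732 CPM), came next. The remaining genes among the 10 highest by CPM were the type II keratin Krt77, the suprabasal protein gene Sbsn, the desmosomal plaque gene Dsp, the basal keratin Krt5, the ribosomal RNA precursor Rn45s and the collagen gene Col1a1. Those 6 genes averaged between 4543 CPM for Col1a1 and 6856 CPM for Krt77. The place of Col1a1 rests on WT 1. It was at 13953 CPM there and at 3288, 3722, 1254, 4616 and 426 CPM in WT 2 to WT 6.

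Perp and Dsg1a encode desmosomal membrane proteins (4516 ± 1091 and 2779.6 ± 530.1 CPM), Flg2 a filaggrin of the granular layer (3157 ± 648 CPM) and Spink5 the inhibitor LEKTI of epidermal kallikreins (3026 ± 734 CPM). Krt1, Krt15 and Krtdap, a suprabasal type II keratin, a basal and bulge keratin and a secreted differentiation protein, averaged 3622, 3336 and 3161 CPM. The last 3 were the giant scaffold gene Ahnak (4284 ± 746 CPM), the paraspeckle RNA Neat1 (3615 ± 878 CPM) and the membrane protein gene Itm2b (3283 ± 772 CPM).

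Long genes collect more counts per transcript, so transcript levels are compared between genes on a scale of counts per kb of gene length, rescaled to 1000000 per library. Genes said below to lead a list are those with the most counts (CPM), an order that can turn per kb. On that scale Krt10 remained highest at 19172 ± 5108, and Krtdap, whose counted length is 456 bases, came next at 15169 ± 4749.8. Krt77 (8867 ± 1843), Eef1a1 (8653 ± 880.5) and Dmkn (8078 ± 1819.7) followed, and these 3 means lie closer together than their spread over libraries. Dmkn, Sbsn and Krtdap, all secreted by suprabasal cells, are neighbours on chromosome 7 between positions 30751471 and 30791083 of mm10, and all 3 were among the 10 highest genes per kb.

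Genes of protein synthesis filled much of the rest of the 20 highest per kb. Rps26, Rplp1, Rps24, Rps15, Rps12 and Rpl41, which encode ribosomal proteins, ranged from 4014 for Rpl41 to 7349.9 rescaled counts per kb for Rps26. B2m, the light chain of MHC class I, stood at 6947 ± 1379.9 and Tpt1, the translationally controlled tumour protein gene, at 6109.6 ± 677. Fam25c averaged 6558 ± 1942, the epithelial lectin gene Lgals7 4246 ± 818, and the remaining members were Sbsn, Krt5, Perp, Krt15 and Itm2b. Dsp, Ahnak and Neat1, which are long, dropped to 1234, 513 and 388 on this scale. Short genes rise on this scale, and paralogs with near-identical sequence, ribosomal protein genes above all, may be undercounted to an unknown degree because the authors discarded reads that mapped to several places.

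**Figure D1:**
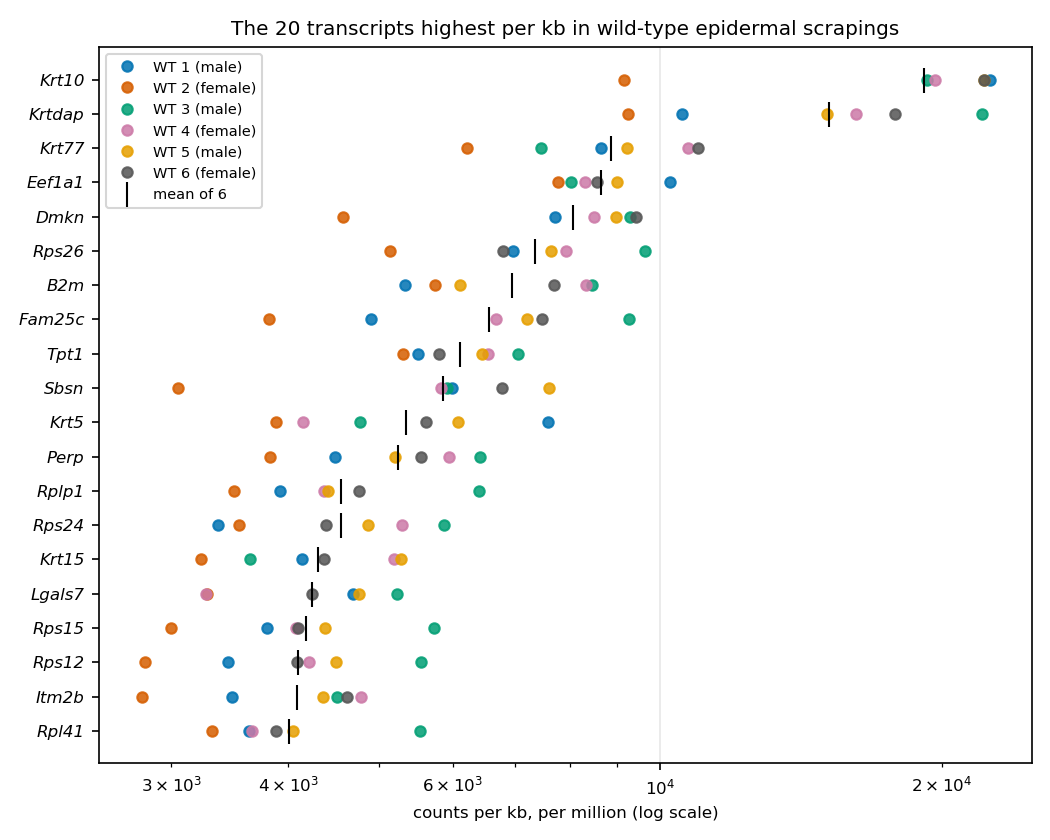
The 20 transcripts with the highest mean rescaled counts per kb (x axis, log scale), 1 point for each wild-type library and a bar at the mean of 6. WT 2 is the lowest library for 17 of the 20 genes, and WT 3 is the highest for every ribosomal protein gene shown.

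Keratin genes of all kinds, 44 in the table, took 4.34% ± 0.855 of the counts and 4.88% ± 0.853 per kb. Type I and type II keratins pair into filaments, and the ratio of their summed levels per kb was 1.37, 1.34, 1.60, 1.51, 1.59 and 1.53 in WT 1 to WT 6. The ratio thus held within a narrow range while the sum itself was 2.74% of counts in WT 2 and 4.09% to 5.03% elsewhere. Within the suprabasal pair the balance was less even, since Krt10 exceeded Krt1 per kb by 3.53-fold in WT 1 and 10.9-fold in WT 2. Of the suprabasal type II keratins, Krt1 stood at 6385, 837, 3558, 2352, 3845 and 2669 rescaled counts per kb in WT 1 to WT 6 and Krt77 at 8652, 6213, 7458, 10702, 9209.9 and 10969.5. Krt77 was the more abundant of them per kb in 6 of 6 libraries.

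Other epidermal families were smaller. Late cornified envelope genes (19 genes) held 0.382% ± 0.0741 of counts, and 1.12% per kb because they are short. Serpins (35 genes, many of them protease inhibitors) held 0.342% ± 0.0199, kallikreins, the serine proteases that help shed the cornified layer, 0.268% ± 0.0519, and calcium-binding S100 proteins 0.207% ± 0.0217. Skint genes, which shape the epidermal γδ T cells, made up 0.231% ± 0.0704 with 11 genes. Small proline-rich genes were uneven, with 0.235% of counts in WT 2 and 0.01000% to 0.0271% in the other libraries.

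Marker lists of 28 cell types or layers were summed in each library, and together the 256 of their 279 genes that are in the table accounted for 10.6% ± 2.01 of the counts. Most counts therefore fell on genes that mark no cell type of the lists. The keratinocyte lists held 8.03% ± 1.52 of counts, dermal lists 1.32% ± 1.43, follicle lists 0.591% ± 0.283, immune lists 0.261% ± 0.119 and the sebaceous list 0.136% ± 0.104. Per kb the same classes stood at 9.86%, 0.733%, 0.743%, 0.441% and 0.0804%, so the long collagen genes lost and the short MHC class II genes gained. Such a share depends on which genes a list holds and is no cell fraction. In bulk scrapings fewer cells of a type and less RNA per cell of that type cannot be told apart.

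Library by library, the keratinocyte share was 8.68, 5.04, 8.86, 7.85, 8.95 and 8.78% from WT 1 to WT 6. The 95% Wilson interval for WT 2 ran from 5.03% to 5.05%, and no interval of a class share in any library was wider than 0.0376 percentage points. Counting error was thus small beside the spread between mice. Dermal shares were 4.09, 1.45, 0.803, 0.441, 0.981 and 0.158%, which puts WT 1 highest and WT 6 lowest. Without WT 1 the mean dermal share was 0.767%. Without WT 1, WT 2 and WT 5 the means were 8.49% for keratinocyte, 0.467% for dermal, 0.457% for follicle, 0.216% for immune and 0.0607% for sebaceous lists.

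**Figure D2:**
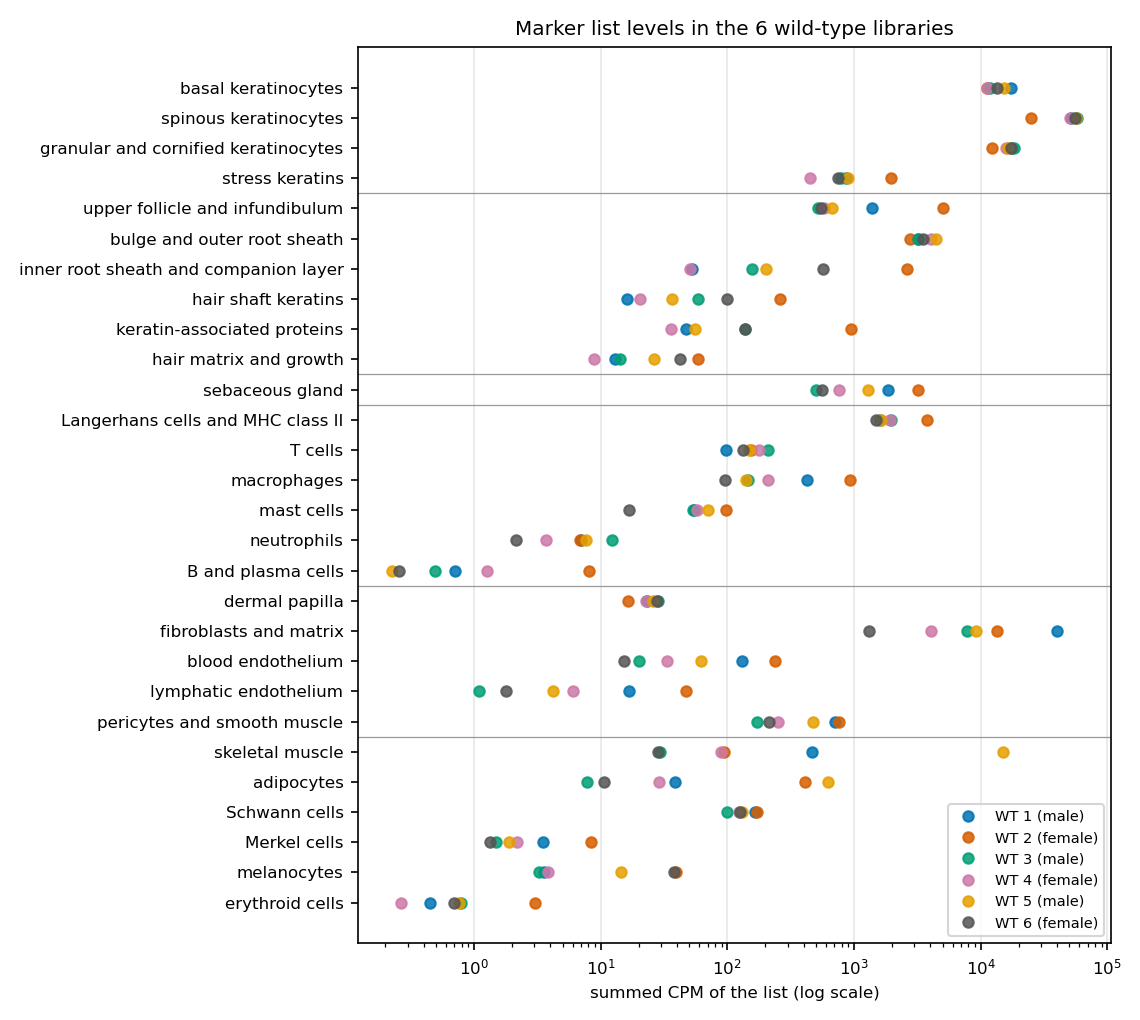
Summed CPM of each marker list (x axis, log scale) in the 6 wild-type libraries, 1 point a library, with lines between keratinocyte, follicle, sebaceous, immune, dermal and other classes. In the spinous list the libraries lie close together apart from WT 2, and the basal list spans from 11137 to 17237 CPM. Skeletal muscle spans from 28.2 to 14960.1 CPM and fibroblasts and matrix from 1316 to 40062 CPM.

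The basal list (10 of 10 genes in the table) was led by Krt5, its partner Krt14 and the hemidesmosomal collagen gene Col17a1, at 5259.9 ± 1332, 2557 ± 763 and 2316 ± 223 CPM. Its sum was 17237, 11137, 11945, 11155, 15300.3 and 13561 CPM from WT 1 to WT 6, a ratio of 1.55 between the highest and the lowest library. The spinous list, with Krt10, Dmkn and Krt77 at its head, summed to 51448, 25119, 57652, 50939, 56789.6 and 56067 CPM. WT 2 was the lowest library for this sum by a wide gap, and the other 5 libraries lay close together. Granular and cornified genes (25 of 26, Flg not being in the table) summed to 17234, 12214, 18182, 15911, 16551 and 17407 CPM, led by Flg2, the envelope protein gene Lor (2514 ± 653 CPM) and the calmodulin-like gene Calm4 (1395 ± 375 CPM).

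The 4 stress keratins, made in follicles and in activated epidermis, summed to 864, 1946, 794, 451, 904 and 752 CPM and rested mostly on Krt17 (808 ± 464 CPM). Krt6a was highest in WT 2 at 216 CPM and Krt16 in WT 3 at 136 CPM, so this list did not move as a block. Krt6a and Krt6b share most of their sequence, and their counts are uncertain for that reason.

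Sums for barrier functions without a cell type of their own were steady. The desmosome list (14 genes, headed by Dsp, Perp and Dsg1a) summed to 18605, 16143, 19975, 21146, 18498 and 19951 CPM. Acylceramide synthesis, which makes the lipids that seal the cornified layer, summed to 3138 ± 238 CPM with a ratio of 1.23 between the highest and the lowest library, led by the fatty acid elongase gene Elovl4 (1013 ± 149 CPM), the lipid transporter gene Abca12 (529 ± 102 CPM) and Sdr9c7 (247 ± 47.3 CPM). Cholesterol synthesis summed to 2706 ± 219.9 CPM with a ratio of 1.19, with Hmgcs1 and Msmo1 among its most abundant genes. The median SD of log2 CPM at 10 CPM or more was 0.298 for desmosome, 0.355 for acylceramide and 0.350 for cholesterol genes. Over all genes at that level it was 0.253, so single members varied more than genes at large.

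Follicle compartments differed widely between mice. Upper follicle and infundibulum genes summed to 1389, 5006, 515, 585, 665 and 545 CPM, and all 6 members were highest in WT 2. Here and below, counts of members highest in a library use CPM scaled by TMM factors, whereas the printed levels are plain CPM. On that scale, of all 9806 genes at a mean of 10 CPM or more, 11.3%, 21.9%, 27.9%, 14.1%, 11.2% and 13.7% were highest in WT 1 to WT 6, so WT 3 and WT 2 lead most often. Cst6, a cysteine protease inhibitor, stood at 533, 2686, 361, 277, 301 and 241 CPM, Krt79, the keratin of the infundibulum, at 594, 1485, 42.4, 138, 204 and 139 CPM, and the stem cell regulator Lrig1 ranged from 61.6 to 248 CPM (median 91.4). WT 1 held an intermediate place in the sum and the remaining 4 libraries lay close together.

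The bulge and outer root sheath list summed to 3225, 2744, 3204, 4031, 4426 and 3483 CPM, and Krt15, which basal epidermis also makes, supplies most of it. The transcription factor genes Sox9 and Nfatc1 were at 53.6, 182, 12.4, 29.8, 60.5 and 31.8 and 83.1, 105, 29.3, 37.1, 57.0 and 38.8 CPM, both highest in WT 2 and lowest in WT 3. The stem cell gene Lgr5, named after its values were seen, was at 8.98, 20.1, 0.198, 1.33, 9.60 and 4.57 CPM.

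The growing hair left transcripts in some scrapings and hardly any in others. The inner root sheath and companion layer list summed to 52.8, 2611, 158, 51.02, 203 and 571 CPM. Tchh, which encodes the sheath protein trichohyalin, was at 15.1, 1334, 45.7, 22.1, 37.1 and 167 CPM, and the sheath keratin genes Krt71 and Krt25 were at 0.0646, 408, 26.6, 0.331, 27.9 and 110.2 and 0, 211, 24.3, 0.530, 28.7 and 113 CPM. WT 2 was highest, WT 6 came next, and in WT 1 Krt71 had 1 count and Krt25 none. Hair shaft keratins summed to 16.2, 262, 58.7, 20.5, 36.6 and 98.7 CPM, led by Krt32 (16.7 ± 4.03 CPM), Krt33a (12.2 ± 17.0 CPM) and Krt35 (8.02 ± 9.74 CPM). Hair matrix and growth genes, headed by the transcription factor genes Msx2 and Hoxc13 and the desmoglein gene Dsg4, summed to 12.9, 58.4, 14.3, 8.88, 26.3 and 42.6 CPM, with WT 2 and WT 6 again highest.

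Keratin-associated proteins, which cross-link keratin in the hair shaft, had 40 genes in the table and summed to 47.5, 953, 139, 35.6, 56.0 and 137 CPM, with 39 of the 40 highest in WT 2. Krtap1-5 was at 0, 85.6, 4.84, 0.398, 0.453 and 6.72 CPM and Krtap7-1 at 0, 65.1, 7.81, 0.199, 0.302 and 13.2 CPM. Krtap3-2 was the exception, with 46.7, 36.3, 52.4, 32.5, 44.8 and 43.8 CPM in WT 1 to WT 6, and supplied most of the list where the other members were near 0. Many of these genes are close copies of each other, and reads that fit several of them had been discarded.

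The sebaceous gland list (9 of 11 genes, Dgat2l6 and Mc5r not being in the table) summed to 1844, 3219, 497, 761, 1295 and 563 CPM. Scd1, the desaturase that makes monounsaturated fatty acids, stood at 1209, 2015, 465, 663, 927 and 518 CPM and supplied most of the sum. Its gland-restricted relative Scd3 was at 192, 397, 6.22, 23.9, 44.7 and 6.66 CPM and Fa2h, the fatty acid 2-hydroxylase gene, at 193, 233, 6.72, 25.6, 173 and 15.3 CPM. WT 2 and WT 1 were highest for Scd3, WT 5 was close to them for Fa2h, and WT 3 and WT 6 were lowest for both.

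Pparg itself, whose exons are intact in these mice, was a low-abundance transcript. Its counts were 59, 269, 5, 15, 58 and 13 from WT 1 to WT 6, which equals 3.81, 15.9, 0.494, 0.994, 4.38 and 0.825 CPM. WT 2 was far above the rest, and the 5 counts in WT 3 lie close to the limit of 3 counts. The order of the libraries resembles that of the sebaceous list, and as closely that of the adipocyte, infundibulum and pericyte lists. Each of these lists differs from it by the exchange of 2 neighbours, so the resemblance is not particular to lipid-making cells.

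Among the immune lists antigen presentation took the most counts. The list of Langerhans cells and MHC class II summed to 1612, 3786, 1946, 1942, 1637 and 1483 CPM, led by the invariant chain gene Cd74 (848 ± 404 CPM) and the class II genes H2-Ab1 (415 ± 159 CPM) and H2-Aa (366 ± 181 CPM). Cd207, which encodes langerin and defines Langerhans cells, was named after its values were seen and measured 26.6, 51.2, 54.1, 60.7, 57.3 and 44.1 CPM. WT 2 was thus not the highest library for Cd207, although it was for 6 of the 8 genes of the list.

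T cell genes summed to 97.0, 154, 209, 179, 148 and 134 CPM. The CD3 chain genes Cd3g and Cd3e averaged 32.0 ± 7.30 and 23.6 ± 7.25 CPM and Cd7 30.1 ± 8.40 CPM, and 7 of the 10 members were highest in WT 3. Macrophage genes behaved differently, at 426, 938, 146, 211, 141 and 96.1 CPM, with 11 of 11 highest in WT 2. The lysozyme gene Lyz2 was at 134, 334, 29.4, 65.7, 22.1 and 9.96 CPM and the mannose receptor gene Mrc1 at 58.1, 143, 7.61, 15.97, 8.77 and 3.11 CPM, whereas Csf1r, the growth factor receptor gene that Langerhans cells share, ranged only from 54.5 to 119 CPM (median 59.1).

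Mast cell genes, headed by the protease genes Mcpt4, Cpa3 and Cma1, summed to 54.5, 97.2, 53.6, 57.8, 70.9 and 16.6 CPM and Tpsab1 was not in the table. Neutrophil genes were scarce at 7.05, 6.90, 12.4, 3.71, 7.71 and 2.16 CPM, with the S100a9, S100a8 and Csf3r genes leading and Mpo, Elane, Ngp, Camp and Retnlg absent from the table. Of the B and plasma cell list only Jchain, the joining chain of secreted IgA and IgM, was in the table, at 0.711, 8.02, 0.494, 1.26, 0.227 and 0.254 CPM with 11, 136, 5, 19, 3 and 4 counts. The B cell genes Cd79a, Cd79b and Ms4a1 were among those not in it.

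Dermal transcripts ranged from abundant to nearly absent. Fibroblast and matrix genes summed to 40062, 13455, 7808, 4092, 9241 and 1316 CPM, a ratio of 30.4 between WT 1 and WT 6. The fibrillar collagen gene Col1a1 was at 13953, 3288, 3722, 1254, 4616 and 426 CPM, Col3a1 at 9794, 2945, 1271, 919, 1327 and 272 CPM and Col1a2 at 9661, 2729.7, 1388, 649.6, 1567 and 168 CPM. These 3 collagens supply most of the peak in WT 1, and by gene 7 of the 13 members were highest in WT 2 and 6 in WT 1. Collagens held 3.88% of all counts in WT 1 and 0.459% in WT 6. The list did not move with vessels alone: blood endothelium summed to 131, 239.6, 19.96, 33.5, 62.3 and 15.4 CPM with 12 of 12 genes, Pecam1, Vwf and Eng among them, highest in WT 2.

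Lymphatic endothelium (Lyve1 and Flt4, with Prox1 not in the table) summed to 16.7, 47.6, 1.09, 6.10, 4.23 and 1.78 CPM. Pericyte and smooth muscle genes summed to 714, 759, 170.4, 251, 476 and 214 CPM, with Notch3, which keratinocytes also express, nearly level from 113 to 178 CPM (median 151) and the smooth muscle myosin gene Myh11 at 222, 233, 14.6, 34.3, 30.8 and 9.58 CPM. Des, the intermediate filament gene of muscle cells, was highest in WT 5 at 263 CPM. Dermal papilla genes were low, with a sum of 23.1, 16.4, 28.3, 22.9, 26.0 and 27.7 CPM led by Rspo3, Wif1 and Fgf10, and each of the 3 was highest in a different library. Corin was not in the table.

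Skeletal muscle transcripts were abundant in 1 scraping. The list summed to 468, 94.2, 29.6, 89.0, 14960.1 and 28.2 CPM, and all 16 genes were highest in WT 5. Myh4, the fast myosin heavy chain gene, was at 93.5, 7.85, 1.38, 8.42, 4526 and 2.09 CPM, the calcium pump gene Atp2a1 at 64.1, 8.67, 1.98, 6.29, 1861 and 1.90 CPM and skeletal actin Acta1 at 42.3, 9.44, 0.790, 9.28, 1427 and 1.14 CPM. In WT 5 the list took 1.496% of all counts. Without WT 5 the mean share was 0.0142% in place of 0.261%.

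Fat genes were raised in WT 5 and in WT 2. Adipocyte genes summed to 38.7, 411, 7.81, 29.2, 629 and 10.7 CPM, but the members differed, since Car3, a carbonic anhydrase of fat and muscle, was at 22.1, 135, 1.38, 11.5, 525 and 2.22 CPM and led in WT 5, whereas the fatty acid carrier gene Fabp4 (6.92, 129.99, 3.75, 7.36, 58.2 and 5.77 CPM) and Cfd, the gene of adipsin (5.49, 74.4, 1.19, 6.23, 28.4 and 1.59 CPM), led in WT 2. In all, 7 of the 8 adipocyte genes were highest in WT 2. The sum of the list in WT 5 rests mostly on Car3, which muscle makes as well.

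Nerve, pigment and blood cells left small signals. Schwann cell genes summed to 164, 171, 100.3, 124, 129.6 and 126 CPM, mostly Mbp at 87.6 ± 8.61 CPM. Melanocyte genes summed to 3.55, 39.1, 3.26, 3.84, 14.6 and 38.2 CPM, with the pigment enzyme genes Dct and Tyrp1 and the melanosome gene Pmel leading and Tyr not in the table. WT 2 and WT 6, the libraries with the highest inner root sheath sums, were also highest for pigment genes. Merkel cell genes (Piezo2 and Krt18, with Atoh1, Krt8 and Krt20 not in the table) summed to 3.49, 8.32, 1.48, 2.19, 1.89 and 1.33 CPM, and of the erythroid list only Alas2 was present at 0.452, 3.01, 0.790, 0.265, 0.756 and 0.698 CPM, globin genes not being in the table.

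Housekeeping functions were compared over the same libraries. Ribosomal protein genes (76 genes) held 4.88% ± 1.08 of counts and 14.3% per kb, with the most counts (CPM) on Rpl4, Rps24 and Rpl13a. Their sums were 40836, 36307, 67448, 50366, 50933 and 46822 CPM, and 75 of 76 genes were highest in WT 3. Nuclear genes of oxidative phosphorylation (79 genes, with the ATP synthase genes Atp5b, Atp5a1 and Atp5d in front) summed to 5445, 5287, 6789, 5259.7, 6771 and 5759 CPM, of which 54 were highest in WT 3 and 21 in WT 5. Both lists are rich in short genes, a point taken up below with gene length.

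Cell cycle genes were low. S phase genes, such as Pcna, Mcm6 and Mcm7, summed to 311, 377, 428, 454, 457 and 429.6 CPM and mitotic genes, such as Mki67, Top2a and Cenpf, to 509, 467, 206, 223, 245 and 413 CPM. WT 1 was lowest for the S phase list and highest for the mitotic list, with 13 of 16 mitotic genes highest there. Mki67 ran from 50.8 CPM in WT 3 to 198 CPM in WT 1.

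Sums of the lists meant for genes that respond within an hour to handling were moderate and even, though the members varied more than genes at large. At 10 CPM or more the median SD of log2 CPM was 0.383 for immediate early, 0.297 for heat shock and 0.253 for all genes. Immediate early genes summed to 1079, 1440.02, 1375, 1043, 1455 and 1362 CPM, led by Jund, Egr3 and Dusp1. The heat shock list summed to 1626, 1190.4, 1818, 1457, 1765 and 1590.2 CPM, led by Hspa8, Hspb1 and Hspa1b. Hspa8, which cells also make without stress, averaged 608 CPM beside a mean sum of 1574 CPM for the list. The heat shock sum is therefore no reading of handling alone. Interferon-stimulated genes (18 of 19, without Oasl1) summed to 232, 277, 298, 221, 176 and 221 CPM, with Stat2 and Ddx58 among the leading genes and 14 of 18 highest in WT 3.

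Clock genes differed between libraries. Circadian output genes and repressors summed to 841, 1372, 1506, 1513, 1586 and 1245 CPM and were lowest in WT 1. The list of activators summed to 187, 167, 104, 142, 103 and 132 CPM and was highest there. Among the output genes Tef was at 117, 234, 279.7, 305, 310.04 and 215 CPM, whereas Nr1d1, the gene of the repressor REV-ERBα, was lowest in WT 4 at 147 CPM and Nr1d2 in WT 1 at 151 CPM. In the list of activators, Arntl was at 67.0, 33.8, 28.9, 39.96, 28.7 and 41.9 CPM and Clock averaged 86.0 ± 17.3 CPM. Nfil3, a repressor that this list also holds, averaged 7.06 ± 5.89 CPM. The hour of tissue collection is not given in the labels, and its part in these differences was not tested.

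Spread between mice was small for most genes. Among the 9806 genes with a mean of at least 10 CPM, the SD of log2 CPM over the 6 libraries had a median of 0.25, with 0.11 at the 5th and 0.87 at the 95th percentile. By edgeR the common biological coefficient of variation was 0.415 and the median over genes 0.285. A coefficient of variation of CPM above 1 was met by 239 genes (2.44%). Of these, 151 were highest in WT 2, 60 in WT 5 and 25 in WT 1 (63.2%, 25.1% and 10.5%, beside 21.9%, 11.2% and 11.3% of all genes at this level), leaving 1 gene each for WT 3 (Krt6b), WT 4 (Xist) and WT 6 (Krt73), the first and last named after their values were seen.

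Most variable genes were thus highest in WT 2 or WT 5, more often than genes at large, while the share of WT 1 was near that of all genes. Leaving out WT 1, WT 2 and WT 5 left 11 genes above the same limit, a number that is lower in part because a coefficient of variation over 3 values has a lower ceiling. Leaving out WT 2 alone gave 160 genes. Of the 239 genes, 68 belonged to a marker list, among them 15 of 15 muscle genes at 10 CPM or more, 8 of 9 inner root sheath genes, 8 of 12 fibroblast genes, 6 of 9 sebaceous genes, and 0 of 10 basal keratinocyte genes and 0 of 72 ribosomal protein genes.

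Xist, the RNA that silences an X chromosome in females, varied most, with an SD of log2 CPM of 6.69, and is described with sex below. Next came the sheath keratin genes Krt71 (4.35), Krt25 (4.20) and Krt27 (3.88) and the muscle genes Myh4 (4.32), Tnnt3 (4.15), Actn3 (4.14) and Acta1 (3.87). A further 8 of the 20 most variable genes were muscle genes as well, namely Atp2a1, Pvalb, Mybpc2, Ckm, Tnnc2, Myom2, Xirp2 and Myl1, along with Myoz1 of the muscle Z disc. Krtap7-1, Krtap8-1 and the cytochrome P450 gene Cyp2g1 completed the 20. Cyp2g1 was at 5.43, 329, 0.198, 39.7, 0.756 and 14.97 CPM from WT 1 to WT 6, higher in each female than in any male, as was Xist.

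**Figure D3:**
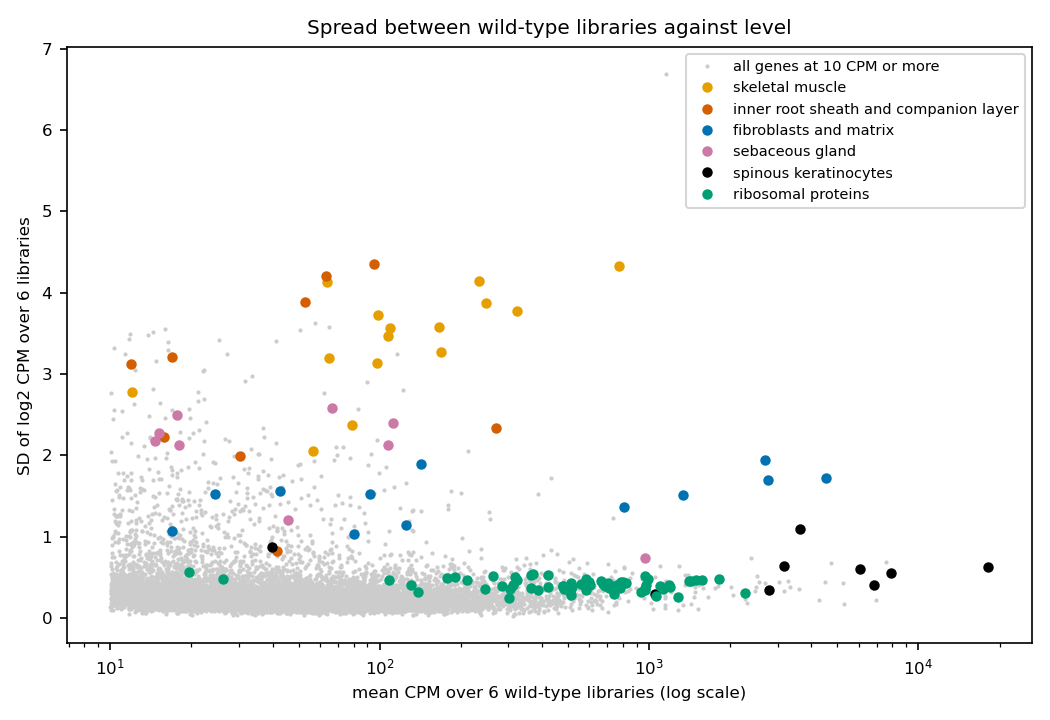
SD of log2 CPM over the 6 wild-type libraries (y axis) against mean CPM (x axis, log scale) for genes at 10 CPM or more, with 6 lists coloured. Muscle and inner root sheath genes lie above most genes of their level, and the lone point near 6.69 is Xist.

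At the other end stood Cast, which encodes the calpain inhibitor calpastatin, with an SD of log2 CPM of 0.0205 and 322, 339, 295, 314, 301 and 304 CPM in WT 1 to WT 6. It was followed by Rell1, Sdf4, Haus2, Sin3b, Upf1, Rit1, Chd1l, Ppapdc2 and Edrf1, with SDs from 0.0305 to 0.0393 and mean levels from 20.01 CPM for Haus2, a subunit of the augmin complex of the spindle, to 151 CPM for Sdf4. Upf1, the helicase of nonsense-mediated decay, averaged 133 ± 7.67 CPM. These values are scaled by TMM factors, which even out composition between libraries, so plain CPM values of these genes vary more than the SD, and WT 3, the lowest library for Cast in plain CPM, was the highest after scaling.

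**Figure D4:**
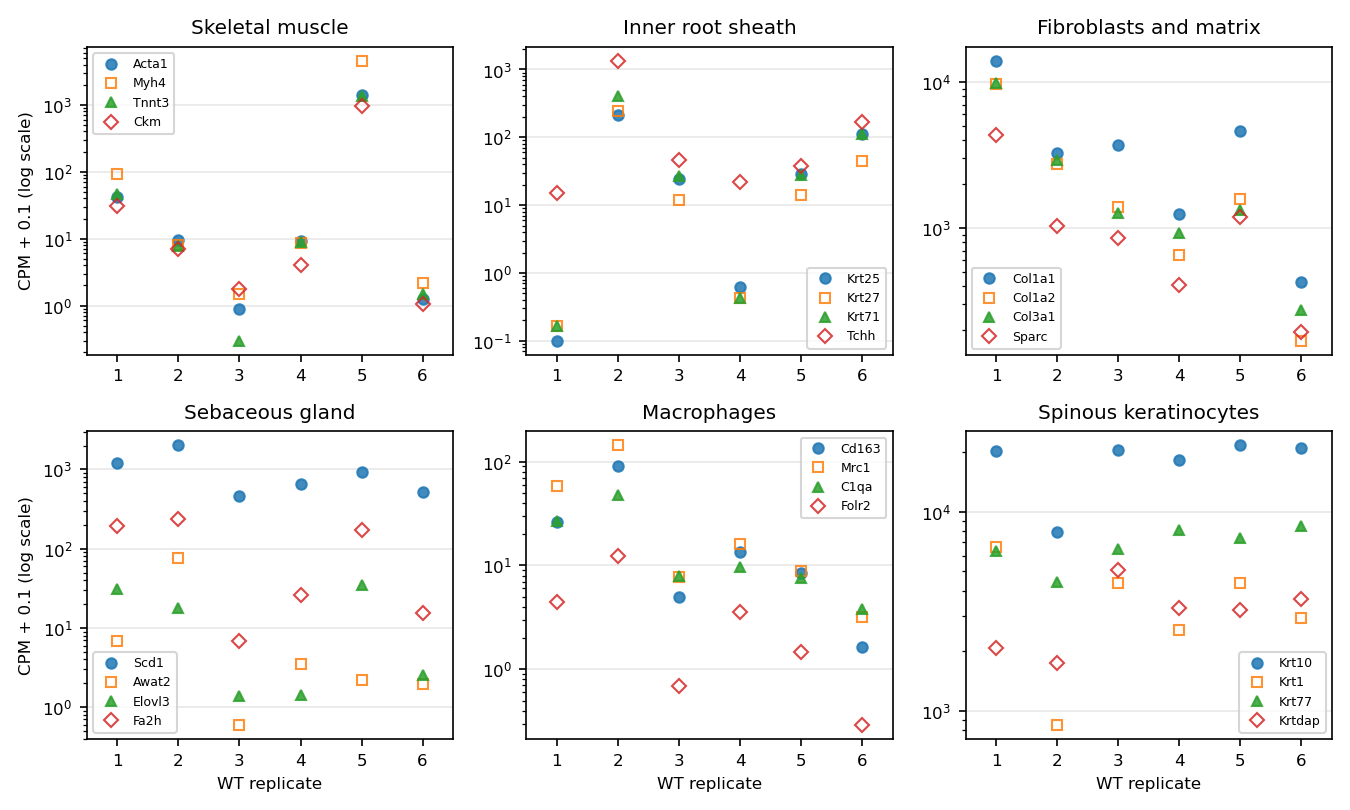
CPM plus 0.1 (y axis, log scale) of 4 genes from each of 6 lists in the wild-type replicates 1 to 6 (x axis), the genes beyond the 3 most abundant of a list having been picked after their values were seen. Muscle genes peak in replicate 5, sheath genes in replicates 2 and 6, collagen genes in replicate 1, and sebaceous and macrophage genes in replicates 1 and 2.

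Promoters of the abundant and of the variable genes were read for a feature that the choice of the mice did not use. The TATA box letters TATAAA were looked for on the strand of the gene, starting 40 to 20 bases before the listed start, in promoters from RefSeq (build GRCm38.p6) matched by symbol to 10993 of the 14533 genes. The letters were present in 600 of all 27025 promoters in the RefSeq set (2.22%) and in 111 of 7565 promoters of genes at 10 CPM or more (1.47%). They were present in 8 of 72 among the 100 genes highest per kb (11.1%), in 17 of 73 among the 100 most variable (23.3%) and in 0 of 86 among the 100 least variable. By list, keratin-associated proteins had 21 of 36, inner root sheath genes 5 of 10, granular genes 7 of 22, spinous genes 3 of 7, muscle genes 2 of 13, and basal, fibroblast and ribosomal genes 0 of 5, 0 of 9 and 0 of 56. These shares are descriptions without a test. Members of a gene cluster share ancestry, and a missing match says only that these letters are not in the window.

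Examples picked after the matches were seen are printed for the 70 bases before the start, on the gene's strand, with the matched letters in capitals. Krt10 (chr11:99389365-99389434, minus strand) and Lor (chr3:92083143-92083212, minus strand) stand for abundant differentiation genes, Krt25 (chr11:99322952-99323021, minus strand), Krtap3-2 (chr11:99556854-99556923, minus strand) and Krtap8-1 (chr16:89487953-89488022, minus strand) for hair genes, Myh4 (chr11:67237742-67237811, plus strand) for muscle, and Krt5 (chr15:101712906-101712975, minus strand), Col3a1 (chr1:45311468-45311537, plus strand) and Rpl4 (chr9:64173317-64173386, plus strand) have no match. Among other abundant or variable genes read, Dmkn, Krt77, Flg2, Calm4, Tchh, Krt27 and Atp2a1 had no match in the window either, though Krt27 holds the letters nearer to its start, so the printed examples do not stand for their lists.
Krt10: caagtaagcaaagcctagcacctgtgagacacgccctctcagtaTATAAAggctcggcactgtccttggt
Lor: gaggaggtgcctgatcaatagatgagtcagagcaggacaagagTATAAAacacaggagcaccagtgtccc
Krt25: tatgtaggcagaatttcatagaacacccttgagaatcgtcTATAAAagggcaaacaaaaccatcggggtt
Krtap3-2: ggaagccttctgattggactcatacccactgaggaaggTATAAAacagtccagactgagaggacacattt
Krtap8-1: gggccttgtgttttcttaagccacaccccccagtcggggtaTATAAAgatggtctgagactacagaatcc
Myh4: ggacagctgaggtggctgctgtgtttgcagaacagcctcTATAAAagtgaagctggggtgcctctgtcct
Krt5: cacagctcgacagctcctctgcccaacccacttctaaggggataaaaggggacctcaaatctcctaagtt
Col3a1: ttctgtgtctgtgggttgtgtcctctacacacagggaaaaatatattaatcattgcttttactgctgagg
Rpl4: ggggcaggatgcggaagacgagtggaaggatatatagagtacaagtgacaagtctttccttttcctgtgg
The even gene Krtap3-2 and the uneven gene Krtap8-1 both hold the letters, at -32 and -29 from the start. Spread was not compared between members with and without the letters.

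Covariation between the 28 marker lists was computed over the 6 libraries as Pearson's r and Spearman's rho of log2 summed CPM, with exact two-sided permutation p-values over all 720 orders, for 378 pairs. After Benjamini-Hochberg adjustment 0 pairs had p under 0.05, the smallest adjusted p being 0.113 for r and 0.263 for rho. With 6 mice the smallest p an order can reach is 0.00139, and 67 pairs had an unadjusted exact p under 0.05 for r, 48 of them positive and 19 negative, against 33 for rho. The pairs below describe these 6 mice and do not pass the correction.

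A first block joined the upper follicle with its gland and with vessels. Sebaceous and infundibulum sums had r = 0.913 and rho = 1 (n = 6, exact permutation p = 0.00139 and 0.00278, adjusted 0.113 and 0.263). Leaving out WT 1 and WT 2, which lay farthest from the median, gave r = 0.996 in the remaining 4, the mice whose names share the further number. The sebaceous sum also ran with blood endothelium (r = 0.988, rho = 0.943, n = 6, exact permutation p = 0.00278 and 0.0167, adjusted 0.113 and 0.315; r = 0.989 without WT 2 and WT 3) and with pericytes and smooth muscle (r = 0.972, rho = 1, n = 6, exact permutation p = 0.00278 and 0.00278, adjusted 0.113 and 0.263; r = 0.993 without the same libraries). The place of WT 5 in the pericyte sum rests on Des, which skeletal muscle also makes, and without Des the sum in WT 5 would lie under that in WT 4. Glands, upper follicles and blood endothelium were thus high and low in much the same scrapings.

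A second block joined the parts of the growing hair. Inner root sheath and hair matrix sums had r = 0.9496 and rho = 1 (n = 6, exact permutation p = 0.00139 and 0.00278, adjusted 0.113 and 0.263; r = 0.912 without WT 2 and WT 4). Inner root sheath and hair shaft keratins had r = 0.977 and rho = 0.886 (n = 6, exact permutation p = 0.00556 and 0.0333, adjusted 0.114 and 0.382; r = 0.932 without WT 2 and WT 4). Here WT 6 sat high and WT 1 low, whereas in the gland block WT 1 sat high and WT 6 low, so the blocks set the mice in different orders.

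Spinous keratinocytes ran against several gland, vessel and immune lists. Against lymphatic endothelium r was -0.813 and rho -0.886 (n = 6, exact permutation p = 0.00833 and 0.0333, adjusted 0.121 and 0.382; r = -0.738 without WT 2 and WT 3). Shares of a fixed total tend to run against each other, and this part was not tested. Spinous and granular sums had r = 0.966 and rho = 0.829 (n = 6, exact permutation p = 0.0194 and 0.0583, adjusted 0.164 and 0.441), but this relation rests on WT 2, since r was 0.594 without it and 0.355 without WT 2 and WT 3.

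Single genes outside a list were ranked by their r with its summed level, over 9806 genes less the members of the list. For skeletal muscle the 5 highest were Myoz1, Klhl41, Myom2, Xirp2 and Pgam2, all muscle genes, with r from 0.992 to 0.998. For the inner root sheath they were Adgrg1, the gap junction gene Gjb2, the cornulin gene Crnn, Marcksl1 and Krtap4-1, with r from 0.959 to 0.988. Crnn was at 1.36, 87.2, 1.58, 0.331, 3.02 and 8.37 CPM and Gjb2 at 18.7, 111, 29.3, 13.9, 26.1 and 39.3 CPM, highest in WT 2 and then WT 6 like the sheath keratins.

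For adipocytes the highest genes were Adamts1, Coq5, Nfic, Pdk2 and Lpin1, the last a phosphatase gene of triglyceride synthesis, with r from 0.967 to 0.996. For lymphatic endothelium they were Hspa4l, Prkd3, the oestrogen receptor gene Esr1, the hypoxia factor gene Epas1 and Mmrn1, with r from 0.993 to 0.995. For Jchain, the only member of the B cell list, they were Myo1f, Zfp704, Reps2, Tnrc6c and Ciita, the activator of MHC class II genes, with r from 0.985 to 0.994. These genes were picked as the extreme of a long ranking over 6 points, so an r of this size carries no weight as a test, and 156 genes had r above 0.95 with the lymphatic list alone.

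The same ranking for 2 more lists was added after their values were seen. For fibroblasts and matrix the highest genes were Kctd10, Cpz, Ctsk, Sema3b and Adamts2, of which Ctsk encodes the collagen-cleaving cathepsin K and Adamts2 the procollagen N-proteinase. Ctsk was at 328, 96.0, 51.6, 28.2, 47.5 and 4.44 CPM, highest in WT 1 and lowest in WT 6 like Col1a1. For the sebaceous gland Zcchc24, Sav1, Serpina3j and Sdc3 were among the highest, and Serpina3j was at 77.0, 169, 5.14, 14.9, 25.5 and 6.91 CPM, highest in WT 2 and lowest in WT 3.

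Sex was tested across all 14533 genes with edgeR's quasi-likelihood test, 3 females against 3 males, calling a gene at an adjusted p under 0.05 (Benjamini-Hochberg) if its log2 difference was also 0.6 or larger in size. Xist was the only gene called (1 gene, 0.00688% of those tested). It stood at 2122, 2708 and 2132 CPM in the females and 0.388, 0.395 and 0.227 CPM in the males, a log2 fold change of 12.65 (SE 0.37, adjusted p = 0.000145 by edgeR), higher in 3 of 3 females. Each library thus matched its labelled sex. The Y-linked genes Ddx3y, Eif2s3y, Kdm5d and Uty were not in the table, and only 5 of the 12 mice were male while the table asks for 6 libraries above its limit.

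At an unadjusted p under 0.05 the same test gave 604 genes. Over the alternatives this count ran from 207 without WT 5 to 1560 with age as a covariate. The edgeR likelihood ratio test called 11 genes and DESeq2 15, Xist among them in both. The next genes by p, named after their values were seen, were Kdm6a, a histone demethylase gene that escapes X inactivation, at 69.8, 138, 56.9, 125, 54.8 and 122 CPM (log2 fold change 1.00, adjusted p = 0.530 by edgeR), and BC100530, a stefin A gene, at 41.5, 6.43, 82.5, 8.15, 44.4 and 9.70 CPM (log2 fold change -2.88, adjusted p = 0.530 by edgeR). Both genes separated the 3 females from the 3 males, and neither passed the quasi-likelihood test. Mirg (-3.03), Meg3 (-2.28), noncoding RNAs of an imprinted cluster, and the stress keratin Krt16 (-2.62) followed on the male side, likewise picked after their values were seen, with adjusted p from 0.530 to 0.936 by edgeR. All 5 of these genes were among those called by the likelihood ratio test and by DESeq2. With at least 10 counts asked of every library Xist itself dropped out of the table, leaving 0 called genes and 555 at an unadjusted p under 0.05.

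With RIN as a covariate the edgeR count was 27 genes, 25 of them higher in males and among them matrix genes such as Col1a1, Col3a1 and Sparc, the last picked after its values were seen. WT 1, the male with the highest collagen levels, had a high RIN and WT 6, the female with the lowest, a low one. Whether sex or the depth of the scrape sets these genes cannot be told apart with 3 mice a group.

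Levels that moved with RIN were tested in the same way, as the slope of log2 CPM per unit of RIN. The edgeR quasi-likelihood test with Benjamini-Hochberg adjustment called 463 genes (3.19%), 352 higher and 111 lower at higher RIN, and 4232 genes had an unadjusted p under 0.05. This split depended on the method. It was 1336 higher and 1150 lower by DESeq2, 786 and 88 with total counts, and 564 and 51 with sex as a covariate. The call depended on which libraries were included: without WT 1, WT 2, WT 3 or WT 6 in turn edgeR gave 0 genes, without WT 4 it gave 2 and without WT 5 it gave 1215. At an unadjusted p under 0.05 the counts without WT 1, WT 2, WT 3 and WT 6 were 3920, 942, 3301 and 3758, so leaving out WT 2 lowered this count most. The edgeR likelihood ratio test called 1640 genes and DESeq2 2486, and both lean on the same 6 mice. By the labels WT 1 and WT 2 were youngest and had the highest RIN, so age and RIN cannot be told apart there, and the age of WT 2 is itself uncertain.

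Genes that rose most with RIN were Tlr8, a receptor gene of myeloid cells (slope 2.89 log2 units, adjusted p = 0.0379 by edgeR), the small proline-rich gene Sprr4 (2.75), the ribonuclease gene Rnase2b (2.55), the chemokine receptor gene Ccr1 (2.51) and the endothelial gene Mmrn1 (2.48). Sprr4 was at 24.8, 683, 5.43, 11.1, 2.64 and 5.01 CPM, so WT 2 far exceeded all others, and without WT 2 its slope was 1.73. Ccr1 and Tlr8 had few counts outside WT 2, 2, 17, 0, 1, 0 and 0 and 20, 119, 0, 5, 0 and 1 from WT 1 to WT 6. The largest falls were smaller, in Tesc (-0.76), the interleukin 1 family gene Il1f10 (-0.72), the connexin gene Gjb5 (-0.70), the calpain gene Capn9 (-0.67) and Rab3b (-0.63).

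By list, 7 of 11 macrophage genes, 3 of 6 infundibulum genes, 4 of 13 fibroblast genes, 1 of 9 sebaceous genes, 1 of 9 pericyte genes, 1 of 2 lymphatic genes and the only B cell gene were called as higher at higher RIN, beside 352 of 14533 genes over all. Called as lower were 3 of 79 genes of oxidative phosphorylation, 1 of 6 heat shock, 1 of 15 immediate early and 1 of 13 acylceramide genes, beside 111 of 14533 over all, and 0 of 76 ribosomal protein genes were called at all. Median slopes were 1.70 for the B cell gene, 1.62 for lymphatic endothelium, 1.27 for pericytes, 1.07 for macrophages, 1.14 for the infundibulum, 1.00 for fibroblasts, -0.54 for spinous keratinocytes and -0.32 for ribosomal proteins, against 0.000784 over all genes. Lists with no called gene had median slopes as large, 1.35 for keratin-associated proteins, 1.03 for the inner root sheath, 0.98 for blood endothelium and -2.31 for skeletal muscle. Several cell type lists and RIN moved together here, and the part of each in the other was not tested.

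Gene length moved with the libraries too. For genes longer than 8 kb against genes shorter than 1 kb, the difference in median log2 deviation from the mean of the 6 libraries was 0.23, 0.60, -0.73, 0.16, -0.30 and -0.02 from WT 1 to WT 6. WT 2, with the highest RIN, held relatively more of long genes, and WT 3 and WT 5, with the lowest, held more of short genes, though WT 6 with a similar RIN lay near 0. Ribosomal protein genes, which are short, were highest in WT 3. The share of RNA degradation in this slope on length was not tested.

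**Figure D5:**
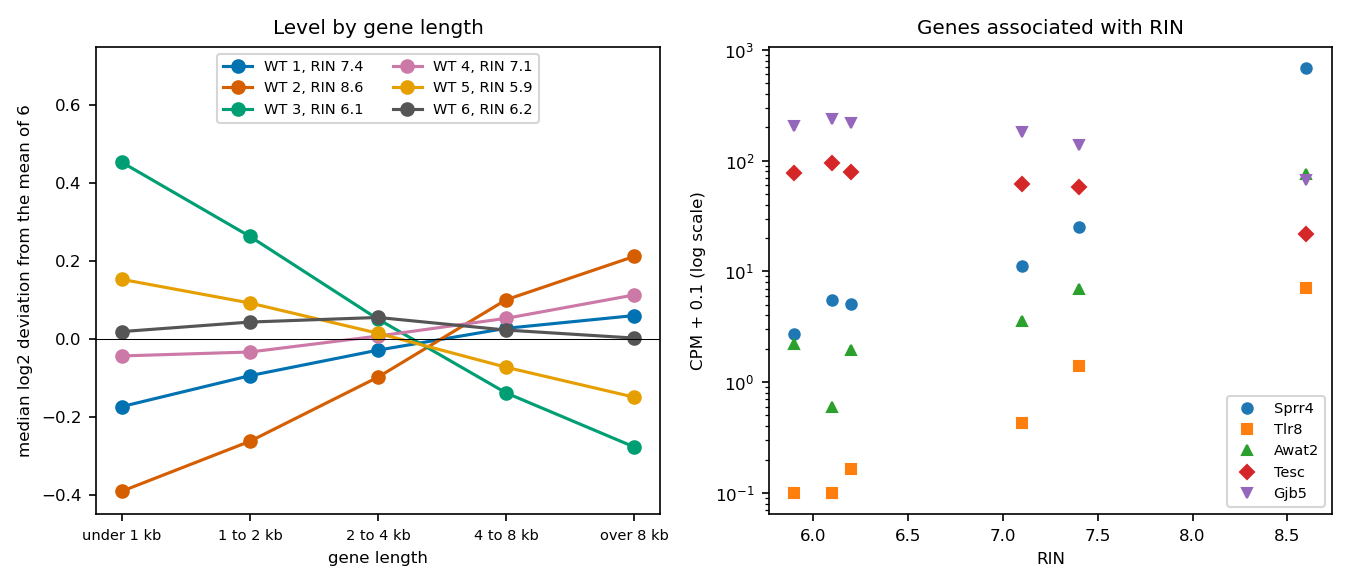
Left, median log2 deviation of a library from the mean of the 6 (y axis) in 5 classes of gene length (x axis). Right, CPM plus 0.1 (log scale) of 5 genes called in the RIN test against RIN, with Awat2 picked after its values were seen. WT 3 falls and WT 2 rises with gene length, and the highest levels of Sprr4, Tlr8 and Awat2 are all in the library with RIN 8.6.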

How the data were processed

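RNA sequencing counts from epidermal scrapings of 6 wild-type mice (3 female, 3 male) were used. According to the submitters' processing notes the authors aligned reads to mm10 with STAR 2.5.2b, discarded reads that mapped to several places and counted reads per gene with featureCounts of Subread 1.5.1. The deposited table holds raw counts for 14533 genes that pass 0.5 CPM in at least 6 of the 12 libraries, with a gene length in bases, and 2800 blank lines at its end were dropped. The 6 Pparg-/-epi columns were not analysed. Library totals ran from 10120840 to 16947632 counts, so a single count was worth 0.0590 to 0.0988 CPM.

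CPM was taken over the library total, and counts per kb were rescaled to 1000000 per library. Spread and tests used TMM factors of edgeR 4.0.16 in R 4.3.3, with a prior count of 2 for log2 CPM. Sex (3 females against 3 males) and the slope on RIN were tested with edgeR's quasi-likelihood test and Benjamini-Hochberg adjustment, at an adjusted p of 0.05 and, for sex, an absolute log2 fold change of 0.6. Lists of 28 cell types and 13 functions (41 in all) were summed per library as CPM over the library total. Their members were chosen with earlier results of these data known. Log2 sums of the 28 lists were correlated over 6 libraries with exact permutation p-values. Tables and figures were made with Python 3.11.15 and matplotlib 3.10.9, and the procedure was tested on simulated data.

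Genes are named by rule: the 20 highest by mean CPM and per kb, up to 3 most abundant members of each list and its missing members, the 20 most and 10 least variable genes at 10 CPM or more, the 5 genes that best follow each of the 5 lists with the widest range, of the called genes up to 10 rises and 10 falls with sex and 5 each with RIN, and Pparg. Other genes are said to have been chosen after their values were seen. Alternatives were the edgeR likelihood ratio test, DESeq2 1.42.0, RLE factors, total counts, a minimum of 10 counts in every library, RIN, age or sex as a covariate, counts per kb, medians, other limits on level and spread, standardized list means, leaving out each library in turn or the 2 farthest, and, chosen after seeing the data, leaving out replicates 1, 2 and 5 together. Males and females of similar age were not blocked as pairs.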

Additional observations from a re-analysis of the deposited data

Results flagged for a closer look

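Of 82 values examined over the 6 libraries, 23 had a highest or lowest library whose gap to the nearest other library was large against the whole range (Dixon's ratio above its 95% critical value). Chance alone marks about 1 in 20 such groups when values follow a normal distribution. The ratio was taken on plain values without a log scale, which can be skewed, and the chance rate for them was not tested. The values also share genes and libraries, so they are not 23 separate events. WT 2 accounted for 18 of them. It was lowest for spinous keratinocytes (25119 CPM), for Krt10 (7891 CPM), for the keratinocyte share of counts (5.04%) and for the counts held by the 10 and the 100 most abundant genes (4.55% and 16.9%).

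WT 2 was highest for stress keratins (1946 CPM), upper follicle and infundibulum (5006 CPM), inner root sheath and companion layer (2611 CPM), hair shaft keratins (262 CPM) and keratin-associated proteins (953 CPM). The follicle share of counts was 1.16% there. Among other cell types it was highest for Langerhans cells and MHC class II (3786 CPM), B and plasma cells (8.02 CPM), lymphatic endothelium (47.6 CPM), Merkel cells (8.32 CPM) and erythroid cells (3.01 CPM), for the immune share of counts (0.499%) and for Pparg (15.9 CPM).

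WT 1 stood apart for fibroblasts and matrix (40062 CPM), for Col1a1 (13953 CPM) and for the dermal share of counts (4.09%). WT 5 did so for skeletal muscle (14960.1 CPM) and WT 3 for the ribosomal protein gene Rpl41 (1252 CPM). Among the 9806 genes at 10 CPM or more, 900 (9.18%) had a library apart by the same ratio, and in 530 of these it was WT 2. The cause was not tested.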

How the results depend on the processing

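Xist was the only gene called for sex by the edgeR quasi-likelihood test, and it was also the only gene called with RLE factors, total counts, age as a covariate or any single library left out (1 to 1). The likelihood ratio test gave 11 genes, DESeq2 15 and RIN as a covariate 27, and the cause was not tested. With at least 10 counts in every library the count was 0, by construction, since Xist does not reach 10 counts in males, and 555 genes had an unadjusted p under 0.05.

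For RIN, 463 genes were called. The likelihood ratio test gave 1640, DESeq2 2486, total counts 874 and at least 10 counts in every library 812, and the cause was not tested. RLE factors gave 396 and sex as a covariate 615. Leaving out single libraries gave 0 to 1215 genes. The count of 0 came without WT 1, WT 2, WT 3 or WT 6, with 3920, 942, 3301 and 3758 genes at an unadjusted p under 0.05 by edgeR.

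Per kb the 10 most abundant genes held 9.28% and the 100 most abundant 32.4% of the total, the keratinocyte lists 9.86% and the immune lists 0.441%, because division by length weights short genes more. Genes with a coefficient of variation above 1 numbered 239, and 698 with a mean CPM of at least 1, 406 by an SD of log2 CPM over 1, 263 with total counts, and 160 to 276 with a library left out. Without WT 1, WT 2 and WT 5, an alternative chosen after seeing the data, the number was 11, in part because 3 values allow less spread.

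Over all 378 pairs of lists, standardized means gave 0 pairs with an adjusted p under 0.05 and 57 unadjusted. Signs were counted only for the 67 pairs with an unadjusted p under 0.05, picked for their strength, and over 2 alternatives 125 values kept their sign and 9 turned. With standardized means the r of the dermal papilla was 0.185 with lymphatic endothelium, 0.344 with sebaceous gland, 0.137 with infundibulum, 0.161 with blood endothelium and -0.185 with spinous keratinocytes. Without the 2 farthest libraries r was -0.271 for stress keratins with erythroid cells, -0.902 with keratin-associated proteins and -0.387 with hair matrix, and 0.0960 for granular keratinocytes with sebaceous gland. The cause was not tested.

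Of the shares of single lists, 349 values moved by less than 1 SD and 20 by more. For genes named in the tests, 158 values stayed on their side of the threshold, 14 passed it only under the alternative and 56 no longer passed it. Depth limits genes near 3 counts, such as Pparg in WT 3, and 294 genes had a count of 0 in at least 1 library.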

Other observations

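The shares describe transcripts and not cells, and they depend on the length and choice of each list. Genes under the table's limit cannot be seen, and B cell, globin and Y-linked genes are among those not in the table. Whether a low level or discarded reads left each of them out was not tested. Reads that map to several places had been discarded, so the levels of close copies such as Krt6a and Krt6b, keratin-associated proteins, stefin A genes and ribosomal proteins are uncertain. Among the 6 mice, age by the labels and RIN overlap, and the depth of each scrape is not known. All mice carry the floxed allele, and only dorsal skin of a single strain was sampled.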
